A study of Mus musculus with 2 samples.

Results

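The data follow 10 genes of fibroblast growth factor (FGF) signaling in newborn mouse ureters whose Sonic hedgehog (SHH) response was blocked. They are the ligand genes Fgf7 and Fgf10, the receptor genes Fgfr1 and Fgfr2, the feedback inhibitor genes Spry1, Spry2, Spry4 and Dusp6, and the ETS transcription factor genes Etv4 and Etv5. Members were chosen by gene name on the array. All 10 were found, with 14 of the 39429 probes, and they are 10 of 30011 named genes. Where a gene had several probes, the brightest one, by its average over the 4 channels, stands for the gene. Ureters of wildtype NMRI mice at postnatal day 0 (P0) were explanted and cultured for 18 h with 10 µM cyclopamine, an inhibitor of SMO, the membrane protein that carries the SHH signal into the cell, or with DMF at 1 in 1000 as control. RNA from pools of ureters was hybridised to 2 two-colour oligonucleotide arrays, each with 1 cyclopamine pool against 1 control pool. Replicate 1 held female pools with control in green and cyclopamine in red, and replicate 2 held male pools with the dyes swapped, so that sex, dye orientation and replicate cannot be told apart. On both samples the source name of the second channel reads IWP-2, an inhibitor of WNT secretion, while titles, treatment entries and protocol name cyclopamine. Whole explants mix all cell types of the ureter, and fewer cells of a type and less RNA per cell cannot be told apart.

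FGF ligands bind receptor tyrosine kinases together with heparan sulfate on the cell surface, and the receptors signal through adaptors and RAS to the kinase ERK. In many organs FGF7 and FGF10 come from mesenchyme and act on epithelia through FGFR2, whereas FGFR1 is prominent in mesenchyme. ERK activity induces its own brakes, the Sprouty proteins and the phosphatase DUSP6, and the ETS factors ETV4 and ETV5, and transcripts of these genes are therefore widely read as a sign of FGF activity.

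Fgfr1 was measured by 3 probes that did not give the same ratio. The last 30 of the 60 bases of each probe are printed in the order of their brightness, with the longest run of only G and T within these 30 bases in capitals. The first lies at chr8:26685102-26685131, the second at chr8:26684091-26684120 and the third at chr8:26685850-26685879, all on the plus strand of build mm9, and the array annotation names Fgfr1 but gives no exon or UTR for them.
Fgfr1 probe 1: taTTaaaaacaaacgaacagaaagaaaaaa
Fgfr1 probe 2: ctggaccgcaTTGTGGccttgacctccaac
Fgfr1 probe 3: TTGTTTGTTTGGTTGGTTGGTTGGTctttt
Over all 60 bases the longest run of G and T was 4 bases in probe 1, 8 bases in probe 2 and 46 bases in probe 3, and 90.0% of the bases of probe 3 were G or T. Probe 3 held 18 different words of 3 bases, against 38 in probe 1 and 37 in probe 2.

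Stretches of the Dusp6 and Etv5 promoters are shown because these 2 members of the ERK response had the highest ratios of that group. RefSeq promoter windows, running from 250 bases before to 50 bases after a start site (build GRCm38.p6), were matched for 7 of the 10 members, in 8 windows, and were read on both strands for letters recognised by ETS factors (CGGAAG and GGAAGT, which overlap each other in CGGAAGT) and by GLI factors, the transcription factors of the SHH pathway (CCACCCA). The Dusp6 stretch is chr10:99263142-99263201, plus strand, and its capitals mark CGGAAG on the opposite strand, beginning 62 bases before the start. The Etv5 stretch is chr16:22438555-22438614, minus strand, and belongs to the second of 2 Etv5 windows. Its capitals join CCACCCA on the opposite strand, beginning 222 bases before the start, and an overlapping GGAAGT beginning 217 bases before it. The same window holds another GGAAGT that begins just past the start and is not in the stretch.
Dusp6: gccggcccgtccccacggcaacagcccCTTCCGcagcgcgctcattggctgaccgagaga
Etv5: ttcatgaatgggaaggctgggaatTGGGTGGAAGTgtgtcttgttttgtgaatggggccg
CGGAAG was found in 16.9% of all 32851 promoter windows, GGAAGT in 23.8% and CCACCCA in 9.30%. Among the 7 matched members each of these was found in 1 gene, Dusp6 for the first and Etv5 for the other pair. These matches describe letters within the windows.

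To see whether the treatment acted on SHH signaling on both arrays, targets of the pathway were read first. Gli1 and Ptch1, direct transcriptional targets of SHH, fell with log2 ratios of cyclopamine over control of -1.83 and -2.09 for Gli1 and -1.13 and -1.49 for Ptch1 on replicates 1 and 2 (limma, adjusted p = 1.76e-08 and 0.00025). Of 6 SHH target genes, 5 were called lower. The arrays were less alike over all tested probes, where their log2 ratios had a Pearson r of 0.242 and a Spearman's rho of 0.220. Over all tested probes the log2 ratios of replicate 1 spread with an SD of 0.457 and those of replicate 2 with 0.296. On replicate 1 the ratio also moved with the genomic length of the gene (Spearman's rho across 16017 genes 0.44, against 0.035 on replicate 2), with a median of -0.23 for genes under 10 kb and 0.28 for genes over 50 kb. Genes are not independent replicates. The arrays were not scaled to each other, and the 75th percentile of control intensity was 3337 on replicate 1 and 628 on replicate 2.

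Against this drop of SHH targets, no FGF member passed either criterion. All 10 members were well above background, with control intensities from 707 to 12317 on replicate 1 and from 132 to 3586 on replicate 2. The limma test, with Benjamini-Hochberg adjustment over 25975 probes, called 0 of 10 members lower and 0 of 10 higher at 0.05, where 0.866% and 0.438% of 19398 genes were called. At an unadjusted p under 0.05 it named 1 member, Fgfr1, as higher and none as lower, where 4.24% and 4.81% of genes were named. The criterion of the study, a control intensity over 100 and a change of at least 1.5-fold, was read here as holding on each array. It was met by 0 of 10 members in either direction, where 0.630% of 13661 genes over that intensity were lower and 0.212% were higher. It carries no p-value. The 95% intervals of the mean ratio of the 10 members lay between 0.696-fold and 1.91-fold, so that a change of 2-fold lay outside the interval of each member in this fit. Each probe has 1 residual degree of freedom, and these intervals rest mostly on the spread pooled over all probes.

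**Figure D1:**
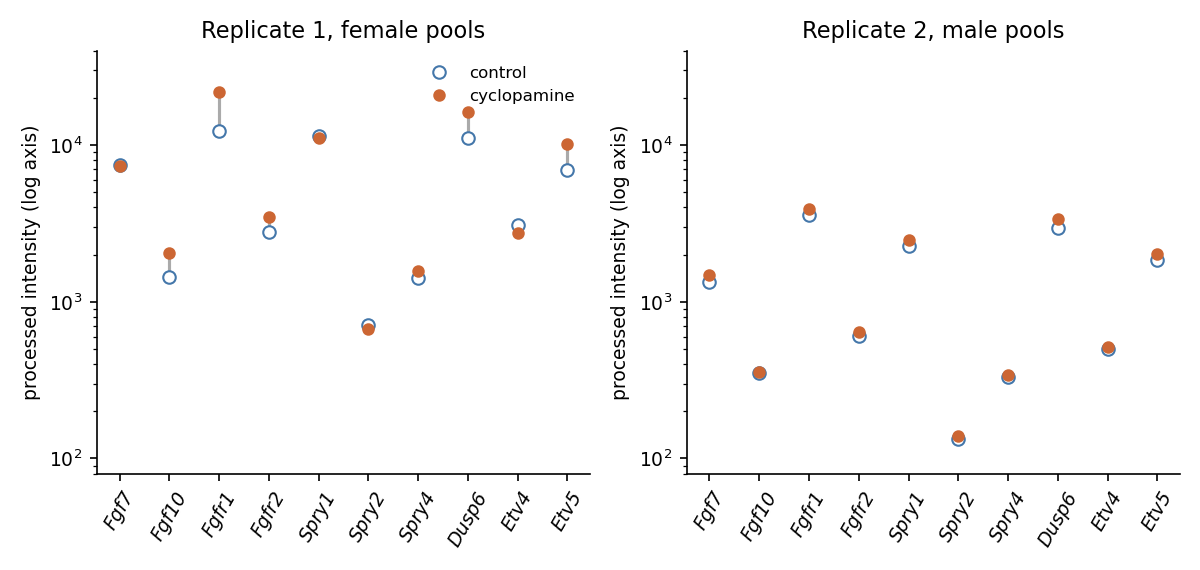
Processed intensity (log axis) of the brightest probe of each member in control (open circles) and cyclopamine (filled circles) channels, 1 pool per point, with replicate 1 on the left and replicate 2 on the right. The pairs lie apart for Fgfr1, Dusp6, Etv5 and Fgf10 on replicate 1 and nearly coincide on replicate 2.

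Neither ligand gene passed a criterion. Fgf7, also called keratinocyte growth factor, had intensities of 7432 in control and 7378 in cyclopamine on replicate 1, and of 1342 and 1475 on replicate 2. Its log2 ratios of -0.01 and 0.14 gave a mean of 0.06 ± 0.10 (SD, n = 2), with a 95% interval from -0.39 to 0.52 (limma, adjusted p = 0.954). The pools of either array were thus within 1.10-fold of each other, with cyclopamine marginally below control on the first and above it on the second. Fgf10, a ligand needed for budding and branching of many epithelial organs, had intensities of 1449 in control and 2037 in cyclopamine on replicate 1, and of 349 and 354 on replicate 2. On the log2 scale its ratios of 0.49 and 0.02 had a mean of 0.26 ± 0.33 (SD, n = 2), with an interval from -0.20 to 0.71 (limma, adjusted p = 0.762). The higher mean of Fgf10 came from the female pools, and the male pools differed by 1.01-fold.

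The receptor genes both had ratios above 0 on both arrays. Fgfr1 gave intensities of 12317 in control and 21825 in cyclopamine on replicate 1, and of 3586 and 3899 on replicate 2. Its log2 ratios of 0.83 and 0.12 gave the highest mean of the 10 members, 0.47 ± 0.50 (SD, n = 2), with an interval from 0.01 to 0.94 (limma, adjusted p = 0.519). Only the 1.77-fold difference of replicate 1 passed 1.5-fold, which 1 of 10 members and 8.48% of all genes did in the upward direction on that array, whereas 0 of 10 members and 2.08% of all genes did so on replicate 2. The second Fgfr1 probe had similar ratios of 0.66 and 0.13, with intensities of 824 and 1306 on replicate 1 and 318 and 347 on replicate 2. The third, with its long run of G and T, had intensities of 553 and 511 on replicate 1 and 209 and 209 on replicate 2, and ratios of -0.11 and 0.01. What this probe detects was not tested, and with the mean of all 3 probes the Fgfr1 ratio was 0.27.

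Fgfr2, the gene of the receptor for FGF7 and FGF10, had intensities of 2807 in control and 3461 in cyclopamine on replicate 1, and of 609 and 638 on replicate 2. The log2 ratios were 0.30 and 0.07, with a mean of 0.18 ± 0.17 (SD, n = 2) and an interval from -0.27 to 0.64 (limma, adjusted p = 0.838). The other Fgfr2 probe shares 42 of its 60 bases with this one and is no independent measurement, and its ratios were 0.26 and 0.05. The files give no splice form for these probes, so the epithelial and mesenchymal forms of the receptor are not separated.

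**Figure D2:**
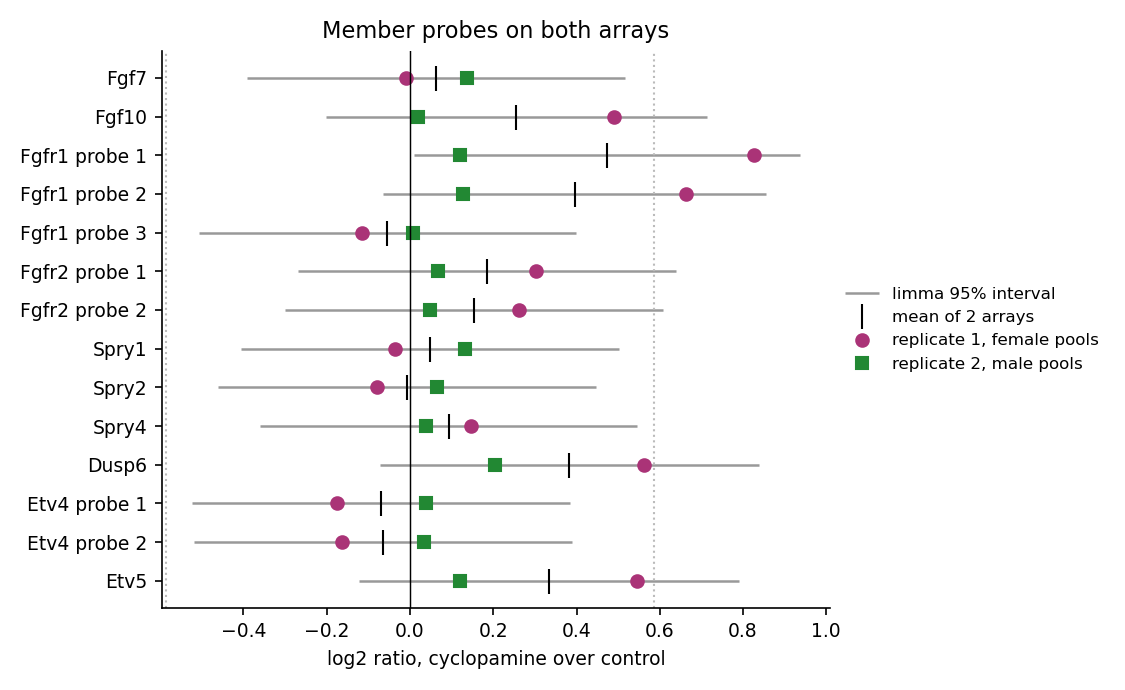
Log2 ratio of cyclopamine over control for all 14 member probes, with circles for replicate 1, squares for replicate 2, a tick for the mean of both arrays and a line for the limma 95% interval. Dotted lines mark 1.5-fold in either direction, which the first 2 Fgfr1 probes alone passed, and on replicate 1 alone.

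The Sprouty genes, whose products restrain receptor tyrosine kinase signaling upstream of ERK, had mean log2 ratios from -0.01 to 0.09. Spry1 had intensities of 11402 in control and 11121 in cyclopamine on replicate 1, and of 2273 and 2493 on replicate 2. Its log2 ratios were -0.04 and 0.13, with a mean of 0.05 ± 0.12 (SD, n = 2) and an interval from -0.41 to 0.50. Spry2 had intensities of 707 and 669 on replicate 1 and of 132 and 138 on replicate 2. Its log2 ratios were -0.08 and 0.06, with a mean of -0.01 ± 0.10 (SD, n = 2) and an interval from -0.46 to 0.45. Both genes were thus below control in the female pools and above it in the male pools, by less than 1.10-fold each time. With the length trend of each array removed, both were above control on both arrays, Spry1 at 0.24 and 0.16 and Spry2 at 0.19 and 0.09. Spry4 had intensities of 1416 and 1568 on replicate 1 and of 331 and 340 on replicate 2, giving log2 ratios of 0.15 and 0.04, with a mean of 0.09 ± 0.08 (SD, n = 2) and an interval from -0.36 to 0.55. The limma adjusted p was 0.964 for Spry1, 0.995 for Spry2 and 0.930 for Spry4.

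Dusp6, which encodes the cytoplasmic phosphatase that switches off ERK and whose promoter stretch is shown above, had intensities of 11090 in control and 16369 in cyclopamine on replicate 1, and of 2936 and 3382 on replicate 2. Its log2 ratios of 0.56 and 0.20 gave a mean of 0.38 ± 0.25 (SD, n = 2), with an interval from -0.07 to 0.84 (limma, adjusted p = 0.634). It was above control by 1.48-fold in the female pools and by 1.15-fold in the male pools, the highest ratio of any member on replicate 2. Dusp6 spans 4.26 kb, and with the length trend of each array removed its ratios were 0.84 and 0.24.

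Neither ETS factor gene passed a criterion. Etv5, of which a promoter stretch is also shown above, had intensities of 6911 in control and 10093 in cyclopamine on replicate 1, and of 1858 and 2020 on replicate 2. The log2 ratios were 0.55 and 0.12, with a mean of 0.33 ± 0.30 (SD, n = 2), with an interval from -0.12 to 0.79 (limma, adjusted p = 0.681). Etv4 had intensities of 3097 in control and 2741 in cyclopamine on replicate 1, and of 503 and 516 on replicate 2. Its log2 ratios of -0.18 and 0.04 gave a mean of -0.07 ± 0.15 (SD, n = 2), with an interval from -0.52 to 0.39 (limma, adjusted p = 0.949), and its second probe gave -0.16 and 0.03. The distance between Etv4 and Etv5 on replicate 1 was not seen at that size on replicate 2 and was not tested.

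Across the 10 members, 6 were higher on both arrays (Fgf10, Fgfr1, Fgfr2, Spry4, Dusp6 and Etv5), where 28.6% of genes were, and none was lower on both, where 28.9% were. The remaining 4 (Fgf7, Spry1, Spry2 and Etv4) had opposite signs, as 42.4% of genes did, each with the female pools below and the male pools above control. On replicate 1 the ratio was above 0 in 6 of 10 members and in 49.8% of genes. On replicate 2 all 10 ratios were above 0, where 49.9% of genes were, but they ranged from 0.02 to 0.20 only. The absolute ratio was larger on replicate 1 in 8 of 10 members, where 74.3% of genes had that order. The median of the members was 0.22 on replicate 1, 0.09 on replicate 2 and 0.14 for the mean, beside medians of -0.003, -0.0002 and -0.005 over all genes tested. For the 6 ERK feedback and ETS genes the medians were 0.06, 0.09 and 0.07, and the last was 0.17 with the length trend removed. The median distance between the arrays was 0.23 for the members and 0.30 for all genes.

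Fgfr1, Fgf10, Fgfr2 and Etv5, 4 of the 6 members higher on both arrays, span 57.0, 77.9, 104 and 58.3 kb, in the range where ratios of replicate 1 were shifted up. Once the length trend had been removed their ratios on replicate 1 were 0.66, 0.28, 0.06 and 0.38, and 8 of 10 members, now with Spry1 and Spry2, were higher on both arrays, where 30.0% of genes were. What produced the trend was not tested.

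**Figure D3:**
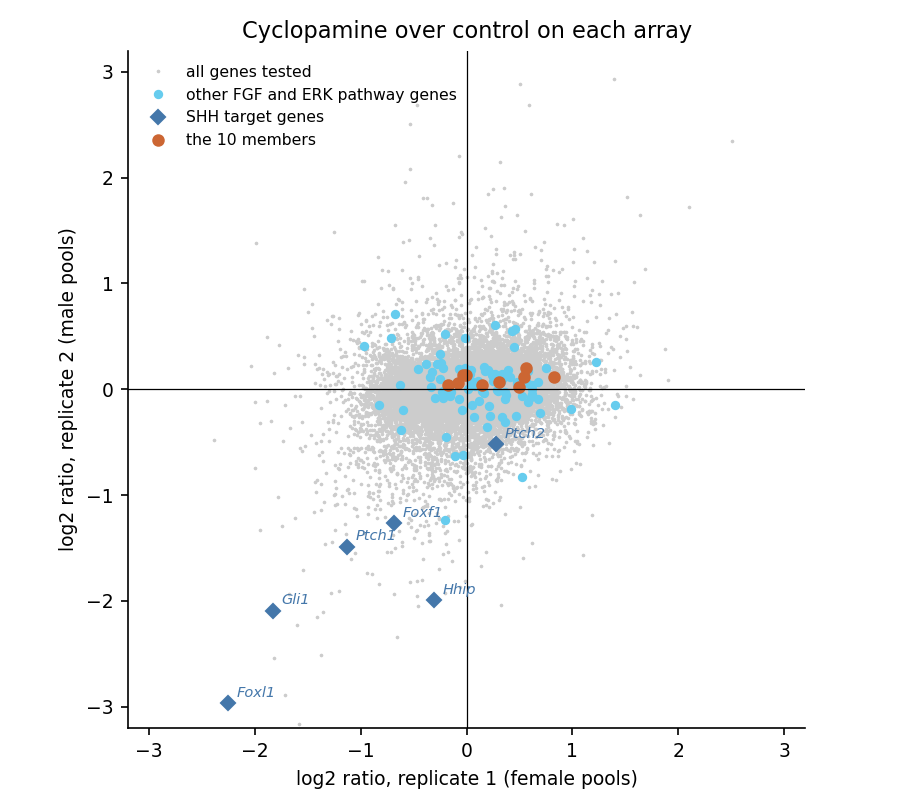
Log2 ratio of cyclopamine over control on replicate 1 (horizontal) and replicate 2 (vertical) for all genes tested (grey, with 3 genes beyond 3.2 on either axis not drawn), the 10 members (orange), 92 other FGF and ERK pathway genes (light blue) and 6 SHH targets (diamonds, named). The members lie within the grey cloud, at most 0.20 from 0 on replicate 2, while 5 of 6 SHH targets lie at the lower left.

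The wider pathway was read from 6 lists with 100 genes, of which 92 could be tested. By their brightest probes limma called 0 lower and 0 higher, where 0.866% and 0.438% of all genes were called. At an unadjusted p under 0.05 it named 3 as lower and 5 as higher, where 4.81% and 4.24% of all genes were named. The criterion of the study was met by 0 in either direction, where 0.630% of genes over its intensity limit were lower and 0.212% were higher. Of these 92 genes 33 were higher and 15 lower on both arrays, shares to be read beside the 28.6% and 28.9% of all genes.

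Among 20 other genes of the FGF family, not all of them ligands of the receptors, 14 could be tested with medians of -0.11 and 0.10 on replicates 1 and 2. Among those well above background in all 4 channels, Fgf5, Fgf18 and Fgf2 had the largest mean ratios of the same sign on both arrays. Fgf5 (0.46 and 0.57) is known as a regulator of hair growth, Fgf18 (-0.83 and -0.15) from skeletal and lung development, and Fgf2 (0.27 and 0.61) is basic FGF. Their limma adjusted p values were 0.424, 0.493 and 0.562. Fgf12, not above background in all channels, had -0.20 and -1.23 (limma, adjusted p = 0.158). Fgf23, a hormone of phosphate balance, was measured by 2 probes that disagreed. The brighter gave ratios of 0.12 and -0.11 (limma, adjusted p = 0.998) and the dimmer gave 0.80 and 1.19 (limma, adjusted p = 0.0098), the 1 call among 131 tested probes of these lists. The dimmer probe had intensities of 43.5 in control and 75.5 in cyclopamine on replicate 1 and of 6.66 and 15.2 on replicate 2, below the intensity of 100 on all channels.

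Among 18 receptor and cofactor genes, 17 could be tested, with medians of 0.22 and -0.09. Fgfr4, a further FGF receptor, had ratios of 0.42 and 0.55 by its brightest probe and of 0.55 and 0.19 by its other probe. The cell surface heparan sulfate proteoglycans Gpc1 and Gpc3 had ratios of 0.68 and 0.07 and of -0.11 and -0.63. By the brightest probes the limma adjusted p was 0.473 for Fgfr4 and 0.648 for both glypicans. The 9 heparan sulfate enzyme genes had medians of 0.28 and 0.01. Sulf1 and Sulf2 encode sulfatases that trim heparan sulfate outside the cell. Sulf1 had ratios of 1.22 and 0.25, with a mean of 0.74 and the lowest adjusted p of the named pathway genes by their brightest probes (limma, adjusted p = 0.133). With an intensity trend in the prior it was called (limma, adjusted p = 0.0213). Sulf2 had 0.58 and 0.18, and Hs6st2, a 6-O-sulfotransferase, had -0.04 and -0.62.

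The 23 genes of the adaptors, RAS and ERK core had medians of 0.29 and -0.01. Shc1, an adaptor, had 0.62 and 0.04, and Sos1, a RAS activator, had 0.62 and 0.003. Braf, a RAF kinase, had 0.57 and 0.06 by its brightest probe and 1.11 and 0.02 by its other probe. The ratios of Shc1, Sos1 and Braf were thus carried by replicate 1. The 15 other feedback inhibitor genes had medians of 0.05 and 0.12. Dusp4 and Dusp16, phosphatases of MAP kinases, had 0.45 and 0.40 and 0.75 and 0.20, and Spred2, a Sprouty-related inhibitor, had 0.48 and 0.07. Of the 15 other ERK-responsive genes, 14 could be tested, with medians of -0.21 and 0.16. Ccnd1, encoding the cell cycle regulator cyclin D1, had -0.62 and -0.39, while Myc, a growth-promoting transcription factor, had 0.34 and 0.15 and Epha2, an ephrin receptor, had 0.39 and 0.18. The limma adjusted p values of these 3 were 0.438, 0.774 and 0.731.

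**Figure D4:**
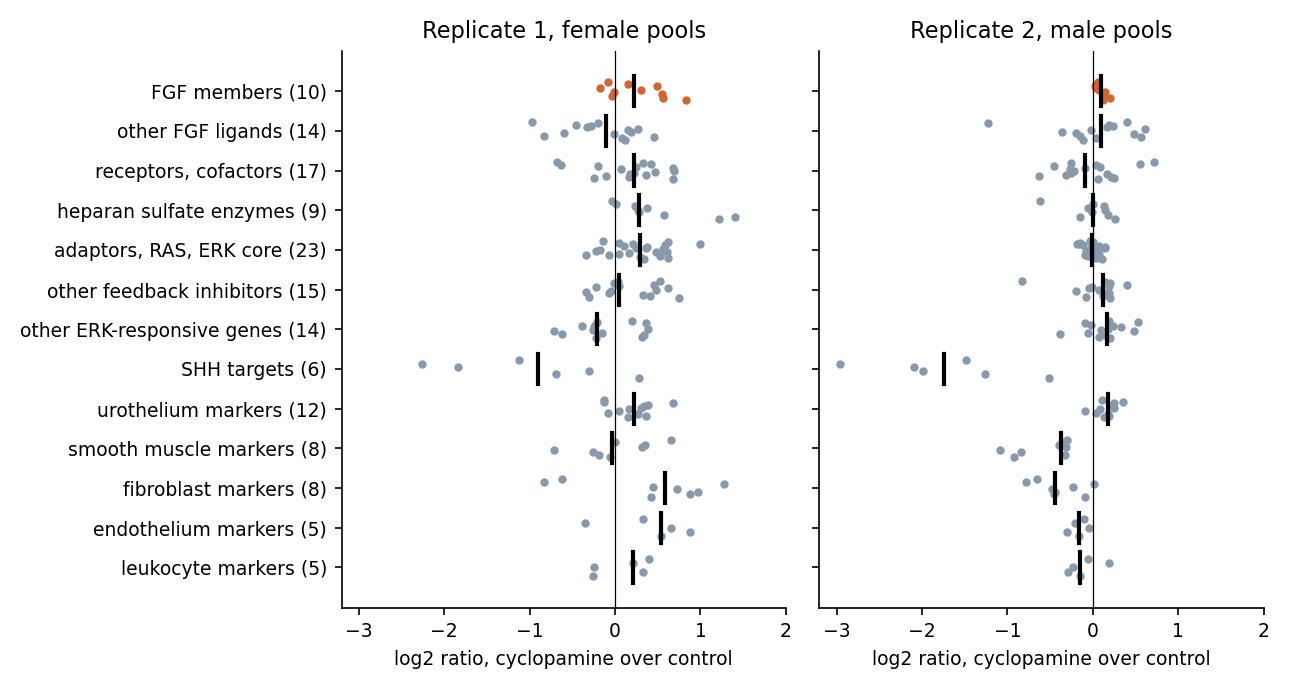
Log2 ratio of cyclopamine over control per gene (points, brightest probe) and median (bars) for the members, 6 pathway lists, SHH targets and 5 marker lists on replicate 1 (left) and replicate 2 (right), with the number of genes tested in parentheses. The members sit around 0.22 and 0.09, SHH targets lie at -0.91 and -1.74, and the medians of fibroblast, endothelium and leukocyte markers change sign between the arrays. So do the medians of the other FGF family genes (labelled other FGF ligands), the receptors and cofactors, the adaptors, RAS and ERK core, and the other ERK-responsive genes.

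Markers of the cell types of the ureter were read beside the members. All 12 urothelium markers were tested and 8 were higher on both arrays, with medians of 0.22 and 0.18 and summed intensities of 476876 in control and 543300 in cyclopamine on replicate 1 and of 123171 and 135453 on replicate 2. None of the 12 was called by limma, and 1 had an unadjusted p under 0.05. The 8 smooth muscle markers had medians of -0.03 and -0.38, with summed intensities of 355480 and 328566 on replicate 1 and of 93821 and 58165 on replicate 2. Of these markers 1, the actin gene Actg2, fell (limma, adjusted p = 0.0251). Acta2, another actin gene and the smooth muscle marker stained in the study, had -0.06 and -0.92 and was not called (limma, adjusted p = 0.504). The 8 fibroblast markers had medians of 0.58 and -0.45, with sums of 357464 and 560413 on replicate 1 and of 169963 and 135045 on replicate 2. Within that list 2 genes met the study criterion as lower. These were Thy1, a surface protein, with ratios of -0.83 and -0.79 (limma, adjusted p = 0.0580), and Aldh1a2, an enzyme of retinoic acid synthesis, with -0.62 and -0.65 (limma, adjusted p = 0.219). Pdgfra, a growth factor receptor, had 1.27 and 0.01. Dcn, Lum, Col1a1, Col1a2 and Col3a1 were also above control on replicate 1, from 0.42 to 0.97, and below it on replicate 2, from -0.09 to -0.48. The list thus did not have 1 direction on replicate 1, where Thy1 and Aldh1a2 alone were below control. The 5 endothelium markers had medians of 0.54 and -0.17, with sums of 47973 and 70574 on replicate 1 and of 12885 and 11256 on replicate 2, and Emcn among them was below control on both arrays (-0.35 and -0.21). The part of cell composition in the ratios of the members was not tested. The 5 leukocyte markers had medians of 0.21 and -0.15 and the 5 glia and neuron markers of -0.24 and 0.01. Of 7 kidney markers 2 were well enough above background to be tested.

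**Figure D5:**
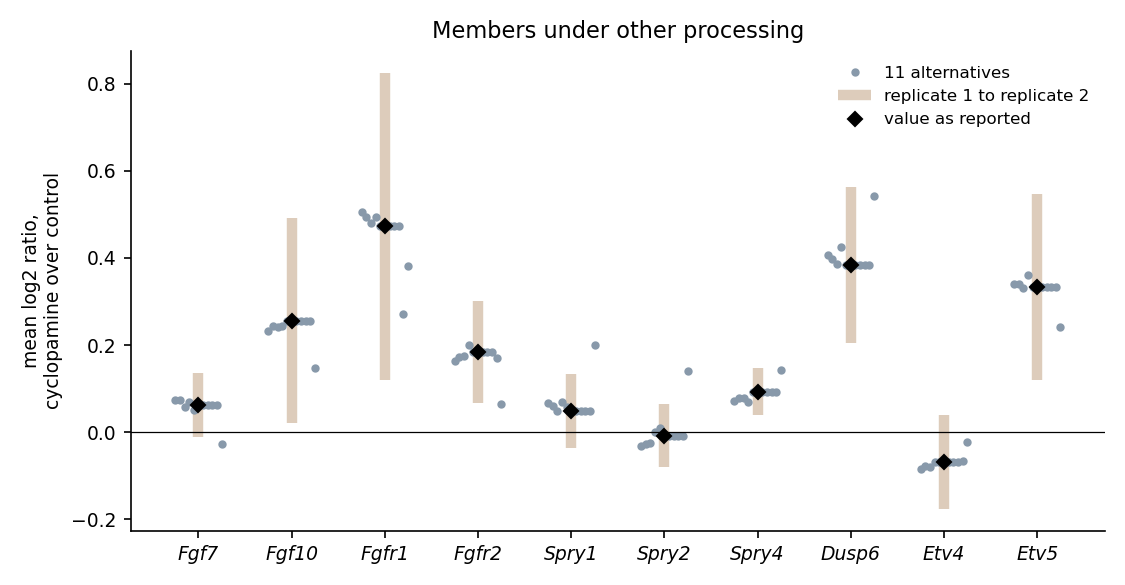
Mean log2 ratio of cyclopamine over control of each member as reported (diamonds) and under 11 other ways of processing (points), with a bar from the ratio of 1 replicate to that of the other. The bar is longer than the scatter of the points for every member except Spry2, and Spry2 and Fgf7 are the members whose points cross 0.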

How the data were processed

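Per the file headers, the authors made the deposited intensity values with Agilent Feature Extraction 12.2.0.7 (the labels' processing notes name 10.7.3.1), as background-subtracted, dye-balanced processed signals. The log10 ratio deposited beside them divides red by green, was not turned for the dye swap and gave directions only. The deposited series table holds a score that behaves as a signed fold change of cyclopamine over control with 1 decimal. Flags are the authors' software output.

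Control spots and outlier spots (2.89% and 3.15%) were left out, no spot was saturated, and up to 4 spots per probe were averaged as log2 processed signal. Of the spots, 69.6% and 65.1% were well above background in control. The 28328 probes with a matching accession were named by RefSeq, and other probes as the array names them. Tests ran on the 25975 probes with a share of 0.5 or more of spots well above background on both arrays, in control or in cyclopamine. Ratios were turned to cyclopamine over control and tested with limma 3.58.1 in R 4.3.3 (lmFit with +1 and -1 for the dyes, eBayes, Benjamini-Hochberg, 0.05), and the steps were tested on simulated data. Tables and motif searches used Python 3.11.15 with pandas 2.3.3. Precision is low with only 2 arrays, each holding 1 pool per condition. Each limma p-value rested mostly on the spread between the arrays pooled over all probes, and little on that of its own probe. The prior had 51.9 degrees of freedom, against 1 residual degree of freedom per probe. Spry4 and Fgfr1, with SDs of 0.08 and 0.50, thus had standard errors of 0.226 and 0.231. Both arrays shared a slide.

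Named were all members, Gli1 and Ptch1, and, of the 6 pathway lists, every gene past limma or the study criterion and up to 3 genes per list with the largest mean ratio of the same sign on both arrays, well above background in all channels. Marker lists were fixed likewise. Members and lists were chosen with earlier results of these data known. Fgf12, Fgf23, Thy1, Aldh1a2, Pdgfra, Emcn, Actg2 and Acta2 were singled out after their values had been seen, and the remaining fibroblast markers were named beside them. Alternatives changed the background correction, loess, filters, prior, channel model, probe choice, length trend, study limits and the arrays used. The methods of the study give ethanol as the cyclopamine solvent, the labels DMF.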

Additional observations from a re-analysis of the deposited data

Results flagged for a closer look

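Fgf7, Spry1, Spry2 and Etv4 were flagged because the female pools lay below control and the male pools above it. The log2 ratio of female minus male pools was -0.15 for Fgf7, -0.17 for Spry1, -0.14 for Spry2 and -0.21 for Etv4. The difference was not tested, sex and dye orientation cannot be told apart, and 42.4% of all genes tested had opposite signs on the arrays. With the length trend of each array removed, Spry1 (0.24 and 0.16) and Spry2 (0.19 and 0.09) were above control on both arrays, while Fgf7 (-0.17 and 0.12) and Etv4 (-0.08 and 0.04) kept opposite signs.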

How the results depend on the processing

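Under each of 11 alternatives with a test, limma called 0 members in either direction, with a lowest adjusted p of 0.244 (Dusp6, at adjusted p = 0.634 as reported). Of 110 member ratios under these alternatives 3 changed sign, and 8 members kept their direction in all. Many of the 110 could not change sign. Alternatives in the filter of dim probes, the prior or the channel model left every member ratio as reported. The mean of all probes left members with 1 probe unchanged. With the length trend removed Fgf7 was -0.027, Spry2 was 0.14, the median of the ERK feedback and ETS genes was 0.17 instead of 0.07, and 1 pathway gene, Fgf12, was called lower. With outlier spots kept Spry2 was 0.0084, and with the series table it was 0. With an intensity trend in the prior 1 pathway gene, Sulf1, was called higher. With the study criterion on the mean ratio 2 pathway genes, Sulf1 and Ndst1, were higher by at least 1.5-fold, Ndst1 with ratios of 1.41 and -0.15 on replicates 1 and 2. Fgf12 and Ndst1 were named after their values were seen. The cause of these changes was not tested.

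Each array pairs its pools, which the reported fit keeps. In a fit of the 4 channels without the pairing (no replicate block), limma called 0 members and 0 pathway genes. This fit has the same ratios by construction, so the median of the members stayed at 0.14. It leaves out the pairing, and its 0 calls are no separate support for the reported fit. With 1 array at a time, a value with no test, the ratio ran from -0.011 to 0.137 for Fgf7, from -0.036 to 0.133 for Spry1, from -0.080 to 0.064 for Spry2 and from -0.176 to 0.039 for Etv4. Members higher past the study criterion ranged from 0 to 1, which was Fgfr1 on replicate 1 alone. Pathway genes past it ranged from 2 to 5 lower and from 0 to 11 higher. The larger pathway counts came from replicate 1. Before any intensity limit, 8.48% of all genes tested were at least 1.5-fold higher on replicate 1 and 2.08% on replicate 2. The share of all genes lower on 1 array alone was not computed, so these counts are no result about the pathway. The median of the members ranged from 0.09 to 0.22.

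Depth here is signal over background. Control intensities of the members' brightest probes went down to 132 on replicate 2 (Spry2), and with 2 arrays precision is low for every member.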
